A study of Mus musculus with 7 samples.

Results

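CTCF binding was examined at 32 mouse genes that mark the cells of the lung: alveolar type 2 cells (8 genes), alveolar type 1 cells (5), airway cells (7), transcription factors of lung development (5) and endothelium (7). The genes were listed by symbol, out of 34610 protein-coding and long noncoding RefSeq genes, and the rule for membership used no measured value. A ChIP-exo peak was assigned to a gene when its centre lay in the gene or within 5 kb of it (mm10). The listed genes had a median length of 27.3 kb (range 1.42 to 208 kb), longer than the median of 12.8 kb over all genes.

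CTCF is a zinc-finger DNA-binding protein that holds chromatin loops at their anchors together with cohesin and that insulates neighbouring domains. Most of its sites are occupied in many tissues, and a smaller class differs between cell types. The lung's gas exchange surface is made of thin alveolar type 1 cells and surfactant-secreting type 2 cells laid against a dense capillary endothelium, so the tissue holds both an epithelial and an endothelial programme. ChIP-exo trims immunoprecipitated DNA with an exonuclease up to the crosslinked protein, so a bound site leaves a forward-strand and a reverse-strand stop on opposite sides.

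The assay was ChIP-exo 5.0 with a CTCF antibody in wildtype mice, with 1 library for each condition: 4 organs (brain, lung, kidney, liver), and liver at 2700000, 270000 and 27000 cells. The study's methods describe the organs as tissue of adult male mice. The labels name an IgG antibody in the extraction step and 0.3% formaldehyde, whereas the methods give another concentration. With 1 library per organ no replicate error could be given, and each tissue is a mixture of cells, so fewer cells of a type and less binding per cell cannot be told apart. In the listed peaks, lung totalled 691479 tags, brain 1032833, kidney 1635582 and liver 527038, and the liver titration 6592538, 640635 and 35594. Many peaks had all their tags at 1 position. Tags of the remaining peaks, called spread here, made up 14.6% of placed tags in lung and between 7.00% (kidney) and 23.5% (liver) in the other organs, against 83.3% at 2700000 cells. The results below use spread peaks, and the peaks of 1 position are given apart.

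Sequence was at hand for 21 promoters of 17 of the genes (RefSeq, GRCm38.p6, from 250 bases before to 50 after a start site), and 2 of them held a CTCF site as defined below. They are shown because they are the only start-site windows of the set for which peaks and sequence could be read together, and they differ in which library carried tags. Capitals mark GAGGGCGC, on either strand, a run of letters from the core of the known CTCF motif.
Cav1, plus strand, chr6:17307390-17307689: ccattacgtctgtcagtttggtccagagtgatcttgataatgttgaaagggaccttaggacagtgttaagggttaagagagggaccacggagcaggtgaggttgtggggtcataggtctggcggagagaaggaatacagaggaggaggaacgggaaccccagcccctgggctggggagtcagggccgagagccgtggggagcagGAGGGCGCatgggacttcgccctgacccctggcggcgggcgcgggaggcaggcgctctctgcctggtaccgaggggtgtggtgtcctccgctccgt
Abca3, plus strand, chr17:24351773-24352072: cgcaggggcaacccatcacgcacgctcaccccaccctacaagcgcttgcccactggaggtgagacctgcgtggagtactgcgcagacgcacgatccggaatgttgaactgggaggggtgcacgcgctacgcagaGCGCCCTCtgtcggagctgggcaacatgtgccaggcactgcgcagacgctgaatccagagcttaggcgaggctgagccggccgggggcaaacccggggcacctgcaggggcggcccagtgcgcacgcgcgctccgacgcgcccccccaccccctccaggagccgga
GAGGGCGC lay at bases 205 to 212 of the Cav1 window on the plus strand (17307594 to 17307601), and at bases 135 to 142 of the Abca3 window on the minus strand (24351907 to 24351914). It also lay in the promoter of Aqp5. Over 32851 promoters of the same length, 2.51% held it on either strand. This run of letters was chosen after the sequences had been seen, so the matches are a description. It was 1 of 3 patterns searched. A longer CTCF core pattern was in no promoter of the listed genes and in 2.43% of all promoters, and a looser form of it, in 8.61% of all promoters, matched Abca3 and not Cav1.

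A site was a place where a forward-strand peak was followed 10 to 80 bp downstream by a reverse-strand peak in any of 6 libraries (all but 27000 cells), with centres within 50 bp joined. Its tags were counted over 200 bp. The 32 genes had 58 sites, in 23 genes. The other 9 genes, Ager, Scgb3a1, Scgb3a2, Muc5b, Krt5, Tbx4, Cldn5, Pecam1 and Kdr, had none. All 58 sites had a peak pair in the deep liver library of 2700000 cells and 3 had one in lung, so the site list was set by that library. Of the sites, 32 lay inside the gene and 26 in its flank, and 10 lay within 1 kb of a gene end. Spread tags of that library lay at all 58 (99.9% of the sites of all genes). The median site held 46.5 tags there, against 38 over 48899 sites of all genes.

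Across the 4 organs, 30 of the 58 sites had any spread tag (51.7%, against 39.4% of the sites of all genes). Lung had tags at 16 sites, which is 27.6% of them, beside 15.6% over all genes. Brain had tags at 17 sites (29.7% over all genes), kidney at 8 (12.3%), liver at 7 (11.3%) and 270000 liver cells at 10 (22.9%). None of the sites had tags in all 4 organs, which 5.35% of sites with organ tags had over all genes. At 6 of the 30 sites lung was the only organ with tags, beside 8.05% over all genes. These are counts of windows, not of separate places. Of the 58 windows 13 overlapped the preceding one, so the same tags can count more than once. Both Cav1 windows among the 6 held the same 10 lung tags. Windows over all genes were built in the same way. These counts depend on depth, because a peak had to hold 2 tags to be listed.

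By gene, a peak pair was present in brain at 6 genes (12.2% of all genes), namely Sftpc, Abca3, Aqp5, Foxf1, Epas1 and Vwf, and in lung at 3 (3.41% of all genes), namely Sftpc, Aqp5 and Vwf. Kidney and liver had a pair at none of them, and 1.95% and 1.49% of all genes had one in those libraries. At 2700000 liver cells 23 of the 32 genes had a pair (57.7% of all genes), and at 270000 cells only Vwf did (5.57% of all genes). Spread tags in lung were present at 11 genes (23% of all genes), namely Sftpc, Sftpb, Abca3, Aqp5, Cav1, Gata6, Pecam1, Epas1, Cdh5, Tek and Vwf. Brain and kidney also had spread tags at 11 genes each (38% and 32.6% of all genes), liver at 15 (39.5%) and 270000 liver cells at 8 (33.2%). All 32 genes had spread tags at 2700000 liver cells (93.6% of all genes), so a gene without lung tags was not a gene without listed CTCF signal in every library. These shares of genes were not adjusted for length, and the listed genes were longer (median 27.3 against 12.8 kb), with more room for a peak.

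**Figure D1:**
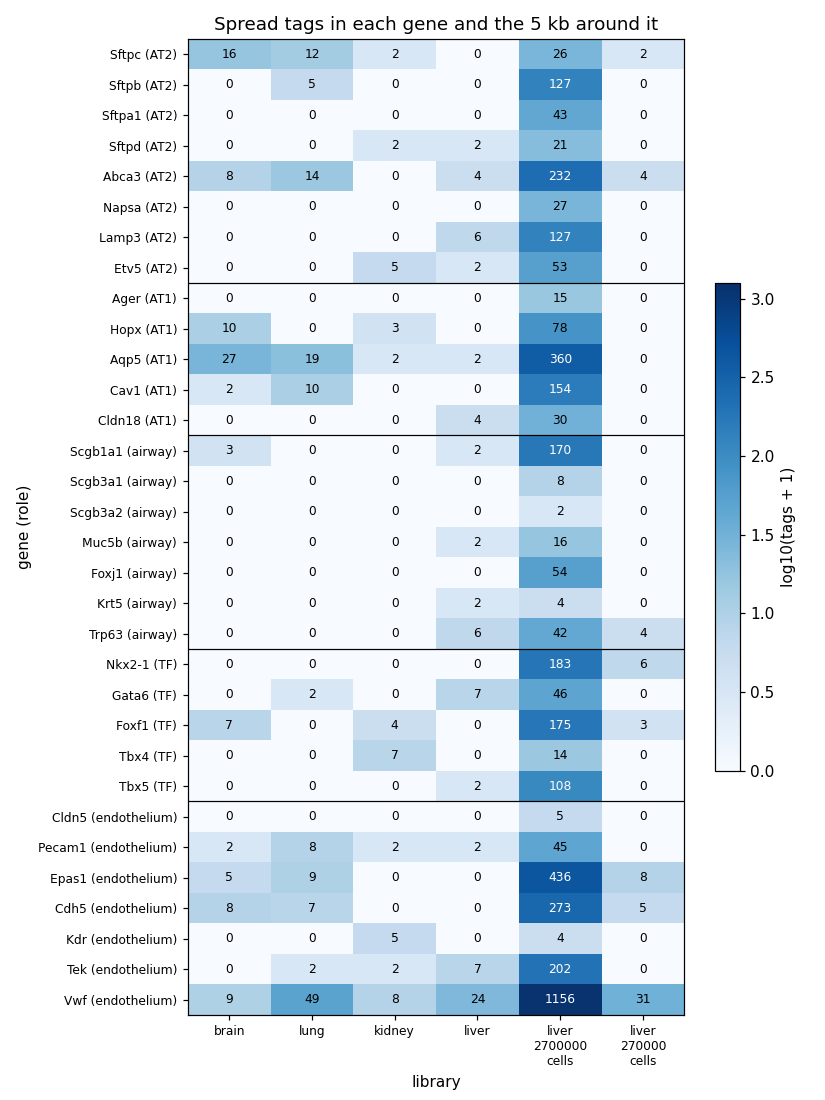
Spread tags in each of the 32 genes and the 5 kb around it (rows, grouped by role) in 6 libraries (columns). The colour is log10(tags + 1) and the number is the tag count. Vwf, with 49 lung tags, is the highest lung cell, and the column of 2700000 liver cells is filled at every gene.

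Summed over the 32 genes, lung had 137 spread tags, brain 97, kidney 42 and liver 74. Per kb this was 0.0881 in lung against 0.0603 over all genes, 0.0624 against 0.0933 in brain, 0.0270 against 0.0462 in kidney and 0.0476 against 0.0413 in liver. Lung thus gave 39.1% of the organ tags at these genes and 25.0% over all genes. Vwf carried 49 of the 137 lung tags (35.8%). Without Vwf the lung density was 0.0624 tags per kb and the lung share 33.8%, and the densities of brain and lung were then the same to 3 digits. Vwf, Aqp5, Abca3 and Sftpc together held 94 of the 137 lung tags.

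**Figure D2:**
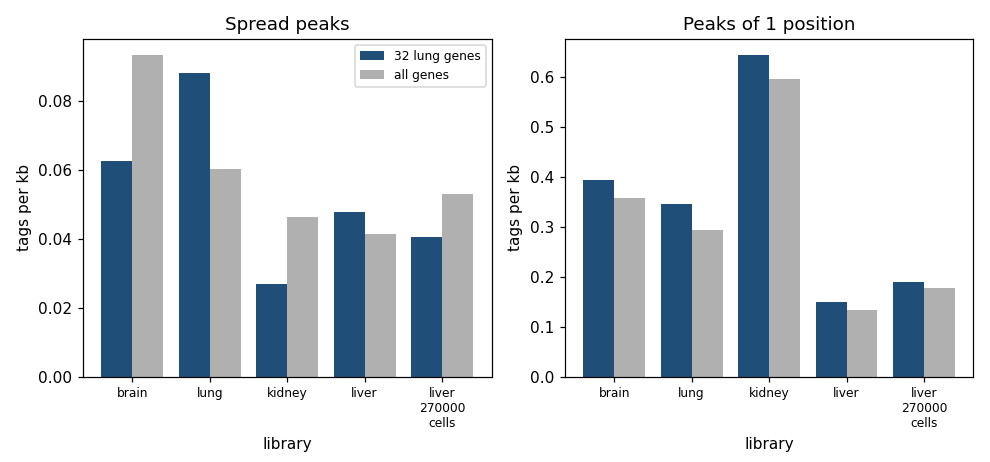
Tags per kb (y axis) over the 32 lung genes (dark bars) and over all genes (grey bars) in 5 libraries, for spread peaks (left) and peaks of 1 position (right); the library of 2700000 cells, at 2.73 and 2.63 spread tags per kb, is left out because of its scale. Lung is the library where the dark spread bar rises most above the grey one, 0.0881 against 0.0603.

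Libraries were compared as levels, the spread tags at a site per 1000000 spread tags at the sites of all genes in that library. On this scale the smallest listed peak, of 2 tags, gave a level of 33.3 for lung, 21.6 for brain, 69.5 for kidney and 107 for liver. A value of 0 in kidney or liver therefore only says that the level was not listed above those steps. A site was called lung-high when the lung level was at least 2 times the mean of brain, kidney and liver, and lung-low when it was at most 0.5 times that mean, with at least 10 organ tags. Of the 58 sites 11 reached 10 organ tags and could be classed, of which 8 were lung-high and 3 lung-low. Over all genes 7949 sites reached it, and 36.3% were lung-high and 41.5% lung-low, so at this depth most sites fell into one or the other class. The minimum counted lung tags too, and 6 of the 8 lung-high sites (those of Vwf, Cav1 and Cdh5) reached it only with them, so their lung-high class follows in part from the minimum. With at least 10 tags in brain, kidney and liver alone, an alternative chosen after the data were seen, 5 sites remained, 2 lung-high (Sftpc and Aqp5) and 3 lung-low (Aqp5, Hopx and Foxf1), beside 17.1% and 57.6% over all genes. With peaks of 1 position kept, 9 of 24 sites were lung-high, beside 36.5% over all genes. The 9 lay in Abca3, Cav1, Foxj1, Gata6, Pecam1 and Vwf, while Sftpc, Aqp5 and Cdh5 then had no lung-high site. The 8 lung-high windows covered 6 places that do not overlap, in 5 genes (Sftpc, Aqp5, Cav1, Cdh5 and Vwf). When sites within 200 bp were joined, an alternative chosen after the data were seen, 6 sites reached 10 organ tags, 4 of them lung-high (Sftpc, Cav1, Cdh5 and Vwf) and 2 lung-low (Hopx and Foxf1). The counting window stayed at 200 bp around each joined centre. No Aqp5 site was among the 6, although 50 organ tags lay over that gene and its flanks.

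For each called site the lung share of the organ tags was set beside 30.0%, the lung share over sites of all genes. The exact (Clopper-Pearson) 95% intervals cover counting error only, not the listing minimum and not variation between animals. At the 6 sites that reached 10 tags only with lung, a high share follows from the minimum, and the values there are a description.

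**Figure D3:**
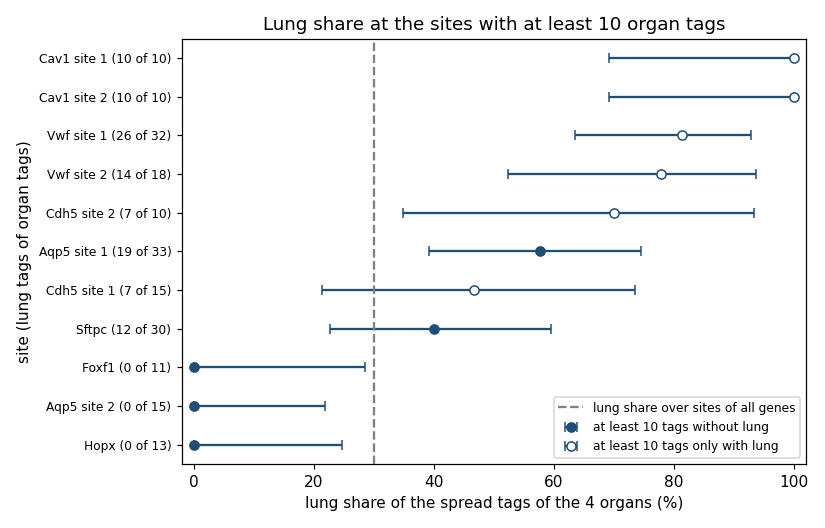
Lung share of the spread tags of brain, lung, kidney and liver (x axis, %) at each of the 11 sites with at least 10 organ tags (y axis), with exact 95% intervals as bars and the share over sites of all genes (30.0%) as a dashed line; open points reached 10 tags only with lung. Of the filled points Aqp5 site 1 (57.6%) lies to the right of the line, the interval of Sftpc (40.0%) crosses it, and Hopx, Foxf1 and Aqp5 site 2 lie at 0.

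The endothelial genes had the largest number of sites (25 in 7 genes) and the highest lung share, 50.3% of their organ tags, with 75 lung tags against 24 (brain), 17 (kidney) and 33 (liver). Vwf encodes von Willebrand factor, the multimeric protein of endothelial storage granules that binds platelets. The gene lies on chromosome 6 (125552948 to 125686679) and held 10 sites. Lung had 49 spread tags over it, brain 9, kidney 8 and liver 24, with 1156 at 2700000 liver cells and 31 at 270000. Per library size the lung level over the whole gene was 1.48 times the mean of the other organs. Ratios over whole genes, here and below, count tags outside sites too, but are scaled by tags at sites. Sites held 63.3% of the spread tags of the lung library but only 20.2% for liver. The median ratio over all genes with at least 10 organ tags was therefore not near 1 but 0.499 (0.925 when scaled by all spread tags). Vwf lay above that median, and the gene as a whole was not classed. Lung tags lay at 4 of its 10 sites.

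The strongest of these sites was centred at 125600366, inside Vwf and 47418 bp from the nearest end of the gene. It held 26 tags in lung, 6 in kidney, 0 in brain, 0 in liver, 196 at 2700000 liver cells and 11 at 270000. Lung thus had 26 of 32 organ tags (81.3%, 95% interval 63.6 to 92.8), and its level was 6.22 times the mean of the other organs. These values leave out peaks of the window that were not spread. Those peaks held 5 tags for brain, 6 for kidney and 0 for lung and liver. Liver carried signal here in both deeper cell titration libraries although the liver tissue library listed none. Among 48899 sites of all genes, 348 had at least 26 lung tags. The lung stops were a forward peak of 13 tags at 20 bp and a reverse peak of 11 tags at 32 bp downstream of the centre. At 2700000 liver cells the main stops were a forward peak of 66 tags at -20 bp and a reverse peak of 48 tags at 25 bp. The reverse stops of the libraries lay close together, while the forward stop of lung was nearer to them than that of the deep liver library. Kidney had 3 forward tags at 23 bp and 3 reverse tags at 24 bp.

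A further lung-high Vwf site lay 2960 bp away at 125603326, with 14 tags in lung, 0 in brain, and 2 each in kidney and liver, and 46 at 2700000 cells (lung share 77.8%, 52.4 to 93.6). Its lung tags were a forward peak of 11 at -72 bp and a reverse peak of 3 at 99 bp, too far apart to form a pair. The neighbouring sites at 125603458 (6 lung tags, 2 in kidney) and 125603577 (5 lung tags, no other organ) share part of these tags, since their windows overlap. Other Vwf sites did not carry lung tags. The site at 125604636 had 6 tags in brain, 2 in liver, 181 at 2700000 cells and 6 at 270000, and no spread tag in lung, though lung had 19 tags there in peaks of 1 position. The site at 125661653 had 5 tags in liver, 201 at 2700000 cells and 6 at 270000, and no spread tags in the other organs, where peaks of 1 position held 5 tags in brain and 15 in kidney. Sites of like strength in the deep liver library (196, 181 and 201 tags) thus differed in which organ library listed spread tags, but not all of the difference holds once peaks of 1 position are counted.

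**Figure D4:**
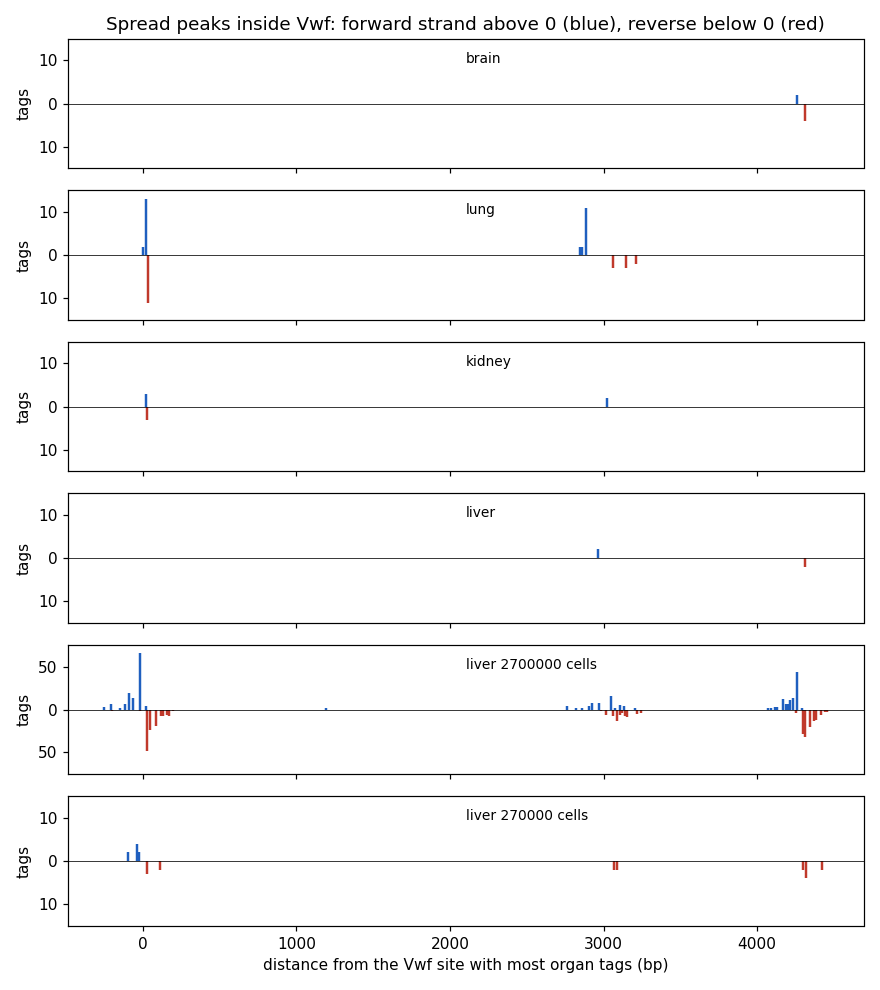
Spread peaks along part of Vwf in 6 libraries (panels), with tags on the forward strand drawn upward in blue and on the reverse strand downward in red (y axis, tags) against the distance in bp from the site at 125600366 (x axis). Lung has peaks at 0 and near 2960 bp and no spread peak at the right-hand group near the site at 125604636. Brain, liver (2 tags) and the liver titration have spread peaks in that group.

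Cdh5 encodes VE-cadherin, the adhesion molecule of endothelial junctions. Its sites at 104146472 and 104146550 lay about 2 kb past the gene (chromosome 8, 104101613 to 104144504), and their windows overlap. At the first, brain had 8 tags and lung 7, kidney and liver had 0, and there were 181 at 2700000 cells and 5 at 270000. At the other, brain had 3 and lung 7, again with 0 in kidney and liver, and there were 163 at 2700000 cells. Both lung counts are the same single forward peak of 7 tags. The levels were 4.03 and 10.8 times the mean of the other organs, and the lung shares 46.7% (21.3 to 73.4) and 70.0% (34.8 to 93.3). At the first, brain and lung counts were close, and kidney and liver, listed at 0, lowered the mean of the other organs. Peaks of 1 position held 4 kidney and 3 brain tags in the first window, and 7 and 3 in the other. With such peaks kept Cdh5 had no lung-high site.

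Epas1 encodes HIF-2 alpha, a hypoxia-inducible transcription factor abundant in lung endothelium. None of its 7 sites reached 10 organ tags. The site on chromosome 17 at 86812305 had 5 tags in brain, 4 in lung, 75 at 2700000 cells and 8 at 270000, and the site at 86832773 had 3 in lung alone among organs and 116 at 2700000. Over the gene, lung had 9 spread tags and brain 5, with none in kidney or liver (ratio of levels 8.30). Peaks of 1 position over Epas1 held the most tags for kidney (64), followed by lung (52), brain (40) and liver (19). With such peaks kept Epas1 had 1 lung-low site and no lung-high site.

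Pecam1, the platelet endothelial adhesion molecule, had 8 lung tags against 2 in each of the other organs, a ratio of 2.02, in a single lung peak and with no site. Tek, the angiopoietin receptor, had 2 tags in lung, 2 in kidney and 7 in liver (ratio 0.226). The 2 lung tags of Tek lay at the site on chromosome 4 at 94827605, where the other organs had none and the deep liver library had 55. Kdr, the main VEGF receptor, had 5 tags in kidney and 0 in the other organs. Cldn5, a claudin of endothelial tight junctions, had none in any organ. Endothelial genes therefore ranged from most of the organ tags in lung to none, and Vwf alone held 49 of their 75 lung tags.

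Among the alveolar type 1 genes, 5 of 9 sites reached 10 organ tags, 3 of them lung-high and 2 lung-low, and lung had 36.7% of the organ tags (29 lung tags, and brain 39, kidney 5, liver 6). Cav1 encodes caveolin-1, the coat protein of caveolae, found in type 1 cells and in endothelium alike. A pair of windows, centred at 17307584 and 17307663 inside the gene (chromosome 6, 17306335 to 17341328), share the same lung peaks and held 10 tags in lung and 0 in brain, kidney and liver, with 30 and 31 at 2700000 liver cells. All 10 organ tags came from lung, so these windows reached the minimum through lung alone. No ratio is given because the other organs were listed at 0.

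The centres of these Cav1 windows fall in the promoter printed above, whose start site is at 17307640. The lung stops there were 2 forward tags at 1 bp and 8 reverse tags at 9 bp from the start site, 8 bp apart and so not a pair. Lung also had peaks of 1 position there, of 5, 3 and 8 forward tags at -66, -34 and -16 bp. Brain had 1 such peak, of 5 tags at -29 bp. At 2700000 liver cells tags were scattered over the same window in small peaks of at most 7 tags.

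The Abca3 window differed. Abca3 is the lipid transporter of lamellar bodies in type 2 cells, and the printed window also lies over Abca17. It had 6 spread tags in brain, 98 at 2700000 cells and 0 in lung, kidney and liver. The brain stops were 2 forward tags at -151 bp and 4 reverse tags at -79 bp from the start site at 24352023, and the deep liver library had its highest forward peak, 23 tags, at -126 bp and its highest reverse peak, 11 tags, at -75 bp. Both pairs of stops flank the capitals in the printed window, whereas at Cav1 the lung stops, at 17307641 and 17307649, both lay downstream of the capitals. Lung had only a peak of 1 position of 8 tags at -141 bp.

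**Figure D5:**
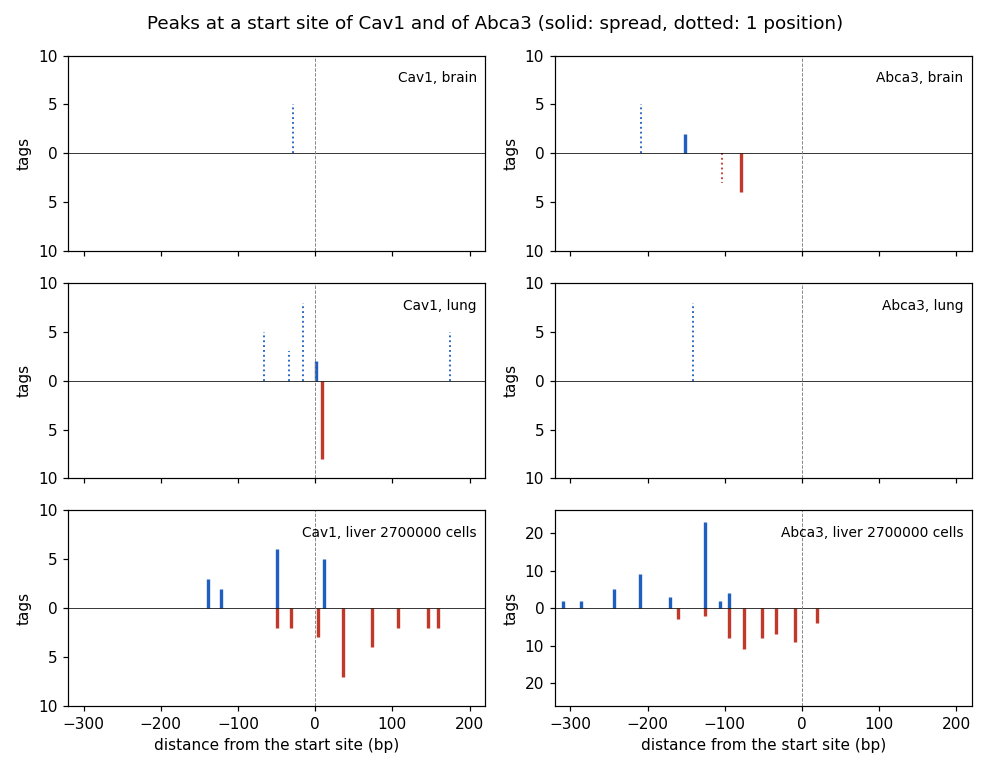
Peaks by distance from the start site (x axis, bp) at Cav1 (left) and Abca3 (right) in brain, lung and 2700000 liver cells (rows), forward tags upward in blue and reverse tags downward in red (y axis, tags; the Abca3 panel of the deep library has a wider range), solid for spread peaks and dotted for peaks of 1 position. At Cav1 the organ with solid lines is lung (2 and 8 tags), at Abca3 it is brain (2 and 4 tags).

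Aqp5 encodes the water channel of type 1 cells, and held 4 sites. The gene lies at 99591028 to 99594829 on chromosome 15. Its sites at 99596147 and 99596591, 444 bp apart, lay past the gene and within the noncoding gene Gm34765. At the first, brain had 14 tags, lung 19, kidney 0, liver 0 and the deep liver library 102. Its lung share was 57.6% (39.2 to 74.5) and its level 6.26 times the mean of the other organs. At the second, brain had 13 tags, lung 0, kidney 2, liver 0 and the deep liver library 146. Brain thus listed similar counts at both sites, while lung listed spread tags at the first only. The lung peaks at the first site were forward, 9 tags at -22 bp, and reverse, 8 tags at -5 bp. The 9 forward tags were spread by only 0.31 bp (standard deviation), close to the peaks of 1 position. Such peaks held 14 tags in brain, 7 in kidney and 3 in lung in that window. With them kept Aqp5 had no lung-high site and 2 lung-low sites.

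Hopx, a homeodomain-only cofactor of type 1 cells, had 10 tags in brain, 3 in kidney and 0 in lung and liver, and 36 at 2700000 cells at its site on chromosome 5 at 77089534, which was lung-low. Lung did have a peak of 1 position of 8 tags in that window, and brain had 6 such tags. With such peaks kept Hopx had no lung-low site. Ager, the receptor RAGE that is abundant on type 1 cells, had no spread tags in any organ. Cldn18, a claudin of alveolar tight junctions, had 4 in liver and 0 in lung. By spread tags the type 1 genes thus held sites of both kinds.

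In the type 2 genes lung had 31 tags, brain 24, kidney 9 and liver 14 (39.7% in lung), and 1 of 13 sites reached 10 organ tags. Sftpc encodes surfactant protein C, the most specific marker of type 2 cells in the adult lung. Its site at 70520705 on chromosome 14 lay 236 bp from the end of the gene (70520941 to 70524081) and within the neighbour Bmp1. Brain had 16 tags, lung 12, kidney 2 and liver 0, with 18 at 2700000 cells and 2 at 270000. Kidney also had 6 tags in a peak of 1 position, and with such peaks kept Sftpc had no lung-high site. As levels this was 173 in brain, 199.6 in lung and 69.5 in kidney. The lung level was 2.47 times the mean of the other organs, but the share of 40.0% had an interval (22.7 to 59.4) that held the 30.0% of all sites, and lung and brain were close. The stops of both organs matched within 6 bp: 9 forward lung tags at -27 bp and 3 reverse at 49 bp, against 6 forward brain tags at -21 bp and 6 reverse at 55 bp.

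Sftpb, which encodes surfactant protein B, had 5 lung tags and none in the other organs at its site on chromosome 6 at 72319190, within the neighbour Usp39, and 94 at 2700000 cells. Abca3 had 14 lung tags over the gene against 8 in brain and 4 in liver (ratio 2.33), though 12 of the 14 lay at no site. Lamp3, a lysosomal membrane protein of lamellar bodies, had 6 tags in liver and 0 in lung, of which 2 lay at its site on chromosome 16 at 19666494, with 90 in the deep liver library. Etv5, an ETS factor of type 2 cells, had 5 in kidney and 2 in liver, and Sftpd, which encodes surfactant protein D, had 2 in each of those libraries. Neither had lung tags. Sftpa1, a surfactant protein gene, and Napsa, an aspartic protease that processes surfactant protein B, had no spread tags in any organ.

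The 7 airway genes had 4 sites and 0 spread lung tags (77 lung tags in peaks of 1 position), beside 3 tags in brain and 12 in liver. Scgb1a1, the club cell secretoglobin, had 3 tags in brain, 2 in liver and 129 at 2700000 cells at its site on chromosome 19 at 9082646. Trp63, the basal cell p53 homologue, had 6 tags in liver, and Muc5b, an airway mucin, and Krt5, a basal cell keratin, had 2 each in liver. Foxj1, the regulator of ciliogenesis, and the secretoglobins Scgb3a1 and Scgb3a2 had none in any organ. The deep liver library had 54 spread tags at Foxj1 and 170 at Scgb1a1, so these were not empty of listed peaks.

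The 5 transcription factor genes had 2 lung tags of 29 organ tags (6.90%), both at Gata6 and outside its sites. Nkx2-1, the homeodomain factor of lung and thyroid, had none in any organ, with 183 at 2700000 cells and 6 at 270000. Foxf1, a forkhead factor of lung mesenchyme and endothelium, had a lung-low site on chromosome 8 at 121092879, which lies 4725 bp from the gene and within Mthfsd. Brain had 7 tags there and kidney 4, lung and liver had 0, and there were 115 at 2700000 cells. Tbx4 had 7 tags in kidney alone and Tbx5 had 2 in liver alone, both T-box factors of lung mesenchyme. The order of the roles by lung share ran from endothelium over both alveolar classes to the transcription factors and airway genes, but these shares rest on 15 to 149 organ tags each.

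The remaining 28 of the 58 sites had no spread tag in any organ and were listed through the liver titration. They ranged from 4 tags, at an Nkx2-1 site, to 150 at the other Nkx2-1 site (chromosome 12, 56541288), which also had 4 at 270000 cells. Between these lay the sole sites of Tbx5 (73 tags), Sftpa1 (37), Sftpd (13), Napsa (12) and Cldn18 (12), both sites of Foxj1 (31 and 5) and both of Etv5 (18 and 14). The Vwf site at 125610932 (108) and the Cav1 site at 17315416 (76) were among them as well. At 11 of the 28 an organ did have a peak of 1 position, with 14 lung tags at a Foxj1 site, 11 lung tags at a Gata6 site and 7 lung tags at the Nkx2-1 site of 150 tags.

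Of the 32 genes, 11 had at least 10 organ tags over the whole window, 13 had 1 to 9 and 8 had none. Over the 11 the ratio of the lung level to the mean of the other organs had a median of 2.02, and over 9863 genes of the genome with as many tags it was 0.499. At 7 of the 11 the ratio was at least 2 (19.6% of those 9863 genes) and at 3 it was at most 0.5 (50.1% of them). Among the 7, Cav1, Epas1, Cdh5 and Pecam1 reached 10 organ tags only with lung, so their ratios follow in part from the minimum. With at least 10 tags in the organs other than lung the median was 1.75 over 6 genes, beside 0.324 over all genes that reached it. Of these 6 genes, Sftpc, Abca3 and Aqp5 had a ratio of at least 2. The highest of the 11, Cav1 at 23.1, rests on 12 organ tags. Hopx and Foxf1 were at 0. With peaks of 1 position kept the median fell to 0.397 over 29 genes, beside 0.310 over all genes with as many tags. The distance of the median from that of all genes thus depended on leaving such peaks out.

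Peaks of 1 position outnumbered spread peaks in the 4 organs, but not at 2700000 liver cells, where there were 346 of them against 766. Over the 32 genes lung had 536 tags in them, brain 611, kidney 1001 and liver 234, with 766 at 2700000 cells. Per kb the lung value was 0.345 against 0.294 over all genes, and that of kidney 0.644 against 0.597. In lung such a peak held a median of 7 tags, more than the median of 3 of a spread lung peak and than the 2 to 3 in the other 3 organs. Of 81 such lung peaks at these genes, 28.4% (18.9 to 39.5) lay within 100 bp of a site, against 74.1% (53.7 to 88.9) of 27 spread lung peaks. In brain the shares were 13.5% and 93.1%, in kidney 5.82% and 50%, and in liver 2.80% and 23.5%. Sites were built from spread peaks, so the higher share of the latter follows in part from the definition. The largest lung peaks of 1 position lay in Cav1 (19 tags), Epas1 (16), Foxj1 (14), Kdr (13) and Pecam1 (13), and that of Foxj1 alone among these was near a site.

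Of the 27 spread lung peaks, 20 with 109 tags lay within 100 bp of a site and 7 with 28 tags did not. The latter included the peak of 8 tags in Pecam1 and peaks of 8 and 4 tags in Abca3. The 4 lung pairs at these genes had a median width of 25.5 bp, against 36 bp over 1641 lung pairs, and the 7 brain pairs 25 bp. At 2700000 cells the median width was 35.5 bp over 154 pairs, beside 39 bp over all pairs of that library. With 4 pairs the lung width is not well determined.

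A further list of 35 lung genes, set aside from the 32, had 100 sites, of which 9 reached 10 organ tags, 4 lung-high (Emp2, Ngfr and 2 overlapping windows of Flt1) and 2 lung-low (Flt1 and Id2), beside 36.3% and 41.5% over all genes. Lung pairs were present at 3 of these genes (3.41% of all genes) and spread lung tags at 11 (23% of all genes). The median lung ratio over 14 genes was 0.346, beside 2.02 for the 11 genes above and 0.499 over all genes with as many tags.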

How the data were processed

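The authors sequenced 7 ChIP-exo 5.0 libraries and called strand-specific peaks of 21 bp. The submitters' processing notes name BWA 0.7.9a, bcl2fastq 2.16 and mm10. The deposited counts are tags per peak, at least 2, not normalized. Another deposited column gives the standard deviation in bp of tag positions, where 0 marks a peak of 1 position.

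The mitochondrial genome, unplaced sequences and 23 bins (10 kb) crowded by 20 or more peaks in every one of 6 libraries were left out. None of the bins lay at the listed genes. Gene positions were those of RefSeq GRCm38.p6, which gave no strand or exons. Named sites were those called, those with the most organ tags of a gene, and those that a comparison turns on. The genes, lists and rules were chosen with earlier results of these data known. With 1 library per condition no test across samples was run. Scripts used Python 3.11.15, numpy 2.4.6, pandas 2.3.3 and scipy 1.17.1, and were tested on simulated data. The simulated libraries had like depth and more tags per site than most organ sites here. The simulation therefore does not show how the calls behave at this depth. Depth ranged from 35594 to 6592538 listed tags, so a site of 2 tags in a shallow library was at the listing minimum. Scaling, flank, pair distance, window, tag minimum, fold and comparator were varied.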

Additional observations from a re-analysis of the deposited data

How the results depend on the processing

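With peaks of 1 position kept, the median ratio of lung to the other organs fell from 2.02 to 0.397. Over all genes it fell from 0.499 to 0.310. Of the listed genes, those with a lung pair rose from 3 to 6 and those with lung tags from 11 to 24. Of 24 sites that reached 10 tags, 9 were then lung-high (36.5% over all genes) and 6 lung-low (30%), so the lung-high share of the listed genes was close to that of all genes. The median ratio was 3.93 when scaled by all spread tags (0.925 over all genes) and 2.40 with a flank of 2 kb (0.475 over all genes). It was 1.61 with 10 kb (0.531) and 1.75 with 10 tags required outside lung (0.324). With pairs 20 to 60 bp apart 1 gene had a lung pair. The lung-high count was 5 of 8 sites with windows of 100 bp (38.3% over all genes), 3 of 3 with at least 20 organ tags (43.8%), 4 of 6 with sites joined within 200 bp (35.1%), 3 of 5 without the pairs of 2700000 cells (30%), which left 8 sites, and 2 of 5 with 10 tags required outside lung (17.1%). The lung-low count was 9 of 22 with at least 5 organ tags (53.6%), 0 of 3 with at least 20 (26.1%) and 0 of 11 against the lowest other organ (8.23%). The last of these was fixed in advance. That rule needs spread tags in brain, kidney and liver alike, and none of the 11 sites had them. The joining, the removal of the deep library's pairs and the requirement outside lung were chosen after the data were seen. The remaining 29 values stayed within 1.5 times. Vwf had a lung-high site in every alternative but the requirement outside lung. The other alternatives all counted lung tags in the minimum. With spread peaks and a minimum of 10 or 20 tags, the called Vwf sites reached it only with lung. The site at 125600366 had 6 kidney tags, so it reached a minimum of 5 without lung. Peaks of 1 position added 5 brain and 6 kidney tags in its window. Where a Vwf site reached the minimum only with lung, its lung-high class follows in part from the minimum. No paired analysis was possible because each condition has 1 library. Depth limited the comparison to 11 of 58 sites, and no value carries a replicate error.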

Other observations

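The liver library of 27000 cells had 322 spread tags at gene sites in all, and at the lung genes its spread tags were 2, both at the Vwf site at 125661653.

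Among the other lung genes, the lung-high site of Ngfr, which encodes the p75 neurotrophin receptor, at 95586421 on chromosome 11 had 21 lung tags and 3 brain tags, with kidney and liver at 0, and 31 at 2700000 cells. Flt1, which encodes a VEGF receptor of endothelium, had 10 lung tags and none in the other organs at 147584125 on chromosome 5, with 281 at 2700000 cells. At another Flt1 site, at 147611536, all libraries had tags: 27 (lung), 41 (brain), 65 (kidney) and 44 (liver), then 388, 156 and 33 down the liver titration.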
